A study of Homo sapiens with 9 samples.

Results

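The serpins are a family of protease inhibitors named SERPIN with a clade letter from A to I and a number. A symbol of that form was held by 35 of the 41857 genes in the deposited files, and the values and counts below are of 34 of them. RNA was measured in MCF10A, a line of human breast epithelial cells that does not form tumours and is labelled wild type. The labels give 3 groups of 3 biological replicates: vector only, human deltaNp63alpha and human deltaNp63beta. All 9 cultures, the vector controls included, received 500 ng/mL doxycycline for 24 h before poly(A) RNA was taken. DeltaNp63alpha and deltaNp63beta are forms of the transcription factor p63 that lack the N-terminal transactivation domain and have different C-terminal ends. The promoter that drives the transgenes, and whether each line was a clone or a pool, are not given in the sources used here. The replicates are cultures of the same cell line, so the p-values measure the spread between these cultures.

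A serpin presents a flexible loop as bait to its target protease. When the protease cuts the loop, the serpin folds around it and traps the enzyme in a covalent complex, so each inhibitor molecule is used once. Clade A and several smaller clades hold secreted plasma inhibitors made largely by the liver. Clade B serpins lack a classical signal peptide, act mostly inside cells and include the squamous cell carcinoma antigens of stratified epithelia. Clade E holds inhibitors of the plasminogen system, and some members, such as the collagen chaperone SERPINH1, inhibit no protease. In the human genome many clade A genes lie together on chromosome 14 and many clade B genes on chromosomes 6 and 18.

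The values are the authors' normalized estimated counts per gene, and the depth of the 9 libraries was 20.3 to 24.4 M (mega) estimated fragments. TP63 RNA, which checks the vector labels against those of the p63 groups, averaged 302 ± 38.1 (SD, n = 3) in the vector group. It averaged 6123 ± 1469.6 in the deltaNp63alpha group and 5257 ± 1312 in the deltaNp63beta group. The value is per gene, so it cannot check which isoform a library holds. The difference between the isoforms was about the size of its SE and was not called. The log2 fold change was -0.22 ± 0.21 for deltaNp63beta against deltaNp63alpha (limma adjusted p = 0.479, 95% interval -0.70 to 0.27). All 10 mammary and basal epithelial markers were expressed, and their summed level was 137141 to 145034 in the vector libraries, 237076 to 251101 with deltaNp63alpha and 355707 to 366102 with deltaNp63beta. Markers of other cell types also stood at different levels in the vector group than in either p63 group. Their sum in the vector, deltaNp63alpha and deltaNp63beta libraries was 10602 to 10943, 7787 to 7915 and 12496 to 13572 for 8 fibroblast markers. It was 1871 to 2089, 1281 to 1641 and 1241 to 1369 for 8 leukocyte markers, where the isoform groups overlapped. For 5 endothelial markers it was 204 to 275, 166 to 172 and 110.3 to 140.5. The sums follow their highest genes, and members of a list differed. In the vector, deltaNp63alpha and deltaNp63beta groups FBLN1 averaged 9233, 7224 and 12426, but DCN 1210.5, 350 and 166. The epithelial marker KRT8 averaged 5290, 4292 and 5418, while its list's sum rose with both isoforms. Among leukocyte markers CD68 averaged 1111, 842 and 611, but CD14 23.6, 19.1 and 170. The part of these markers in the results was not tested. These are bulk cultures, so more cells of a kind and more RNA per cell cannot be told apart in any result below.

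Of the 34 serpins, 20 reached a value of 10 in 3 or more libraries, which was the filter on low values, and only these were tested. SERPINB3 and SERPINB13 passed only through the p63 libraries and so had to differ between groups. A gene was called at a Benjamini-Hochberg adjusted p under 0.05 from limma, adjusted over all 15108 genes tested. Each change is given on the log2(value + 1) scale with its SE, a scale that understates the change of genes with low values, and differences between the isoforms are deltaNp63beta minus deltaNp63alpha. All 3 comparisons came from the same 9 libraries, and those with vector share the vector libraries.

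With deltaNp63alpha, 4 serpins rose against vector (SERPINB2, SERPINB3, SERPINB8 and SERPINB13) and 3 fell (SERPINA3, SERPINA5 and SERPINE2). That is 7 of 20, or 35%, beside 14.5% of all genes tested (8.13% higher and 6.37% lower). With deltaNp63beta, 8 rose (SERPINB1, SERPINB2, SERPINB3, SERPINB5, SERPINB6, SERPINB13, SERPINH1 and SERPINI1) and 4 fell (SERPINA3, SERPINA5, SERPINC1 and SERPINE2). That is 12 of 20, or 60%, beside 41.3% of all genes tested (21.8% higher and 19.5% lower). Between the isoforms, 9 serpins were higher with deltaNp63beta than with deltaNp63alpha and 2 were lower (SERPINC1 and SERPINE2), 11 of 20 or 55% beside 32.9% of all genes tested (17.4% higher and 15.5% lower). The median serpin changed by -0.02, 0.14 and 0.15 in these comparisons, and the median of all genes by -0.01, -0.00 and -0.00, with calls in both directions. These shares include SERPINB3 and SERPINB13. Without these genes 5, 10 and 9 of 18 were called, or 27.8%, 55.6% and 50%, and the medians were -0.06, 0.08 and 0.05. Without deltaNp63alpha replicate 2 or 3 the serpins called with deltaNp63alpha numbered 4 and 3.

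**Figure D1:**
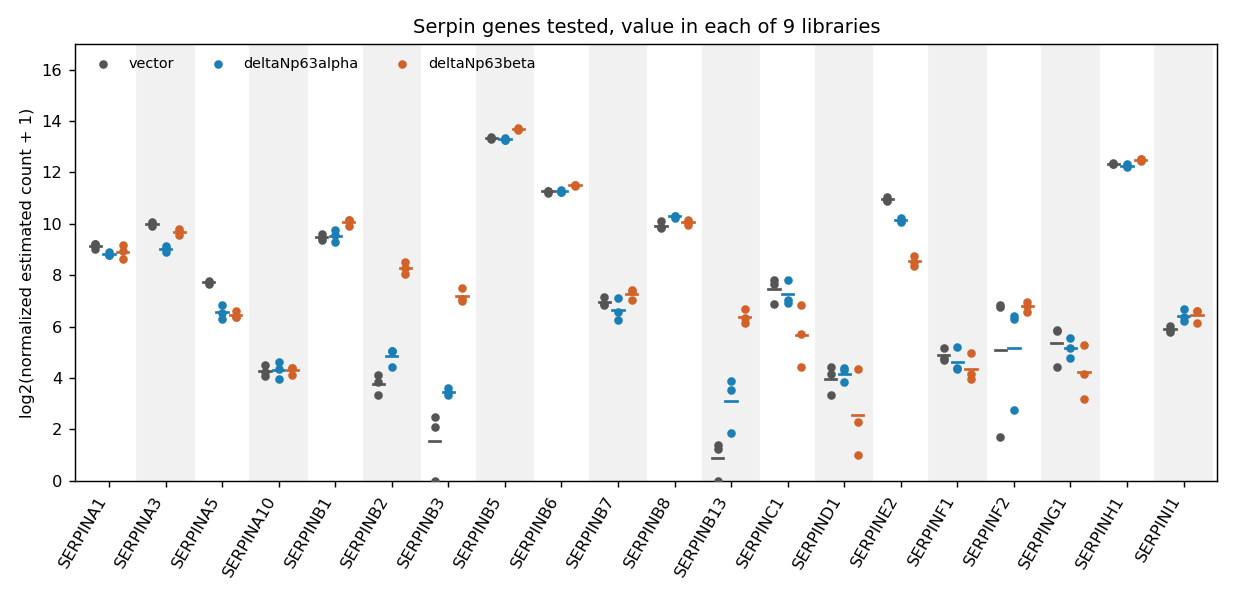
Log2(normalized estimated count + 1) of the 20 tested serpins, one point per library and a bar at each group's mean of 3 libraries, with clades in order from A to I. SERPINB2, SERPINB3 and SERPINB13 rise in steps from vector through deltaNp63alpha to deltaNp63beta, and SERPINE2 falls in steps in the same order.

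**Figure D2:**
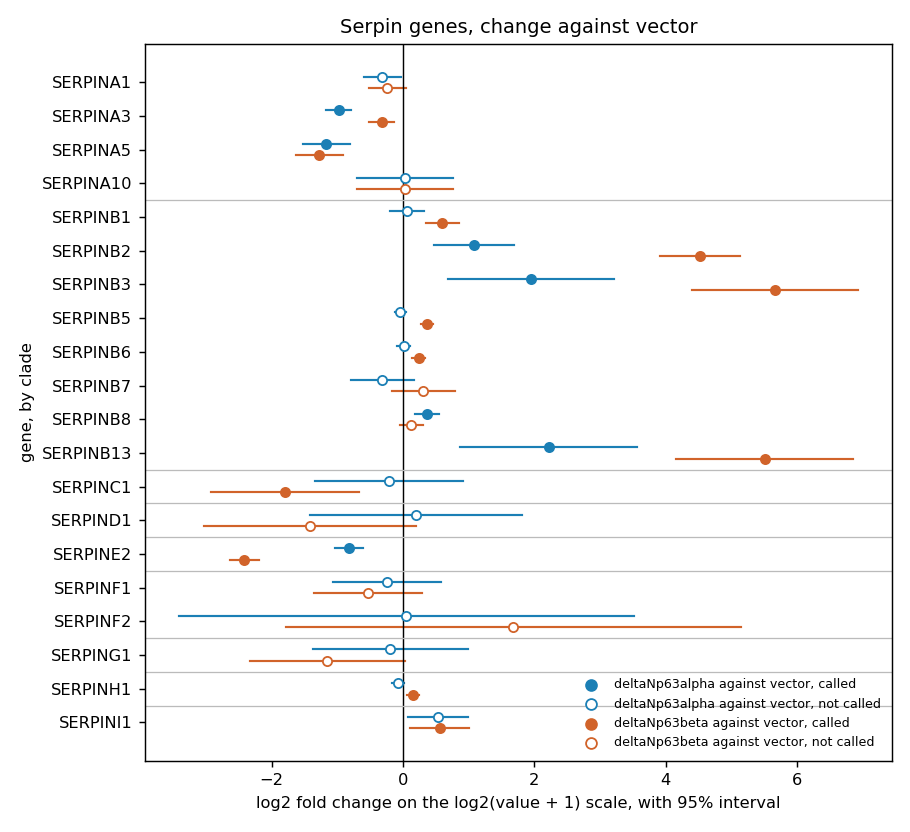
Log2 fold change against vector with its 95% interval for each tested serpin, blue for deltaNp63alpha and orange for deltaNp63beta, filled where limma's adjusted p was under 0.05. Every called clade B gene lies to the right of 0 and SERPINE2 and every called clade A gene to the left.

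The clade B genes rose where they were called at all. Of 13 clade B genes 8 were tested, and 4 rose with deltaNp63alpha, 6 with deltaNp63beta and 7 from deltaNp63alpha to deltaNp63beta, with 0 calls in the other direction by limma. Of all genes tested 8.13%, 21.8% and 17.4% were called higher in these comparisons. Without SERPINB3 and SERPINB13, which had to differ to be tested, 2, 4 and 5 of 6 clade B genes rose. At an unadjusted p under 0.05, 0, 0 and 1 were lower. The 4 that rose with deltaNp63alpha all lie in the chromosome 18 cluster. Their number was 0 without deltaNp63alpha replicate 3, 1 without deltaNp63alpha replicate 2 and 2 without vector replicate 1, vector replicate 3 or any of the deltaNp63beta libraries. The largest changes were in the chromosome 18 cluster, 10 clade B genes within 543 kb (GRCh38 chromosome 18, 63476761 to 64019779). In chromosome order these are SERPINB5, SERPINB12, SERPINB13, SERPINB4, SERPINB11, SERPINB3, SERPINB7, SERPINB2, SERPINB10 and SERPINB8, and 6 of them were tested. SERPINB3, SERPINB13 and SERPINB2 were 1 to 6 log2 units higher than vector with either isoform. SERPINB8 rose by under 1 log2 unit with deltaNp63alpha, and SERPINB5 did so with deltaNp63beta.

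The upstream sequences of the genes that rose most, with the near copy SERPINB4, are shown because these members moved together and because SERPINB3 and SERPINB4 are hard to tell apart. Each is the 250 bases before the RefSeq start site on GRCh38.p14, 5′ to 3′ on the gene's strand. SERPINB3 is chr18:63661894-63662143 and SERPINB4 chr18:63644257-63644506, both on the minus strand, and SERPINB13 is chr18:63587093-63587342 and SERPINB2 chr18:63887455-63887704, both on the plus strand. Capitals mark the bases at which SERPINB3 and SERPINB4 differ, and, in SERPINB13 and SERPINB2, matches to the AP-1 motif TGANTCA and the TATA box TATAAA.
SERPINB3: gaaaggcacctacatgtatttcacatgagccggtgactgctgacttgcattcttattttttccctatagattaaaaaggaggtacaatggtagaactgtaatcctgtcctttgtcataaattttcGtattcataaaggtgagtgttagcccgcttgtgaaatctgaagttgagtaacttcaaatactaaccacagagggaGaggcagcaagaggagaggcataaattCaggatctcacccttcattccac
SERPINB4: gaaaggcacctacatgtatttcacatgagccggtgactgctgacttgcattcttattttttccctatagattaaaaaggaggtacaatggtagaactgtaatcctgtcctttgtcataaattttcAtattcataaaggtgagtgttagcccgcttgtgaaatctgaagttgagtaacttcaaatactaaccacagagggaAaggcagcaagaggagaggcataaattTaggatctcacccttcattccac
SERPINB13: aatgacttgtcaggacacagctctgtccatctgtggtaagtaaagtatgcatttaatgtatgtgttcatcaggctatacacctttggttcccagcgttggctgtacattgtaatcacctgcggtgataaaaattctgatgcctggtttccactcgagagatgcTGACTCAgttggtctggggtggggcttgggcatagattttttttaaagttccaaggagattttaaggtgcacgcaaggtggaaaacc
SERPINB2: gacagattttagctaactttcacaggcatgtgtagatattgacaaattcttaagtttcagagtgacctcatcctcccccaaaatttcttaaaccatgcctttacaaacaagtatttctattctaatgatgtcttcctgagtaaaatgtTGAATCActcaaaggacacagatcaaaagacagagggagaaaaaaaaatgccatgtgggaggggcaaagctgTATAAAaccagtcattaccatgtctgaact
SERPINB3 and SERPINB4 shared 247 of these 250 bases (98.8%), and the differences, SERPINB3 base first and counted from 1 at the 5′ end, were G126A, G201A and C228T. Both strands were searched for the motifs, which do not overlap each other in the printed sequences. The AP-1 motif lay 87 bases before the start of SERPINB13 and 102 before that of SERPINB2, where the TATA box lay at 30. Of the 8 cluster members with a RefSeq promoter entry 6 held the AP-1 motif (SERPINB2, SERPINB5, SERPINB7, SERPINB8, SERPINB12 and SERPINB13) and SERPINB3 and SERPINB4 did not, beside 6.57% of 35116 RefSeq promoters of this length. Some of the 6 have more than 1 entry, and a gene was counted if any entry matched. Such a count of genes cannot be compared directly with a share of promoters. The middle base varied: SERPINB13 held TGACTCA, and SERPINB7 and SERPINB8 held TGAGTCA. SERPINB2 and SERPINB5 held only TGAATCA and SERPINB12 only TGATTCA. The p53-family decamer, again counted by gene, had a match in 1 of the 27 serpins with an entry, SERPINA3, beside 5.57% of promoters. A match describes letters in this window, not a bound site.

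SERPINB3, squamous cell carcinoma antigen 1, is an inhibitor of lysosomal cysteine proteases such as cathepsin L (ENSG00000057149, GRCh38 chromosome 18, 63655197 to 63661963, minus strand). It read 4.598, 3.32 and 0 in the vector libraries, 9.89, 11.4 and 9.19 with deltaNp63alpha and 183, 133 and 128 with deltaNp63beta. The groups formed 3 steps that did not overlap, with the vector library of replicate 3 at 0. The rise was 1.94 ± 0.57 with deltaNp63alpha (limma adjusted p = 0.0443) and 5.67 ± 0.57 with deltaNp63beta (adjusted p = 1.47e-05). Between the isoforms it was 3.73 ± 0.57 (adjusted p = 0.000516). SERPINB3 entered the fit only through p63 libraries and so had to be higher in them, and these p-values are no support for a rise. SERPINB4, its near copy and squamous cell carcinoma antigen 2, was listed at 0 in all 3 vector libraries, at 2.58, 1.31 and 0 with deltaNp63alpha and at 14.3, 7.78 and 6.35 with deltaNp63beta. It was too low for the filter on values. Fragments of these genes could not be assigned with certainty: of the distinct 31-base words in SERPINB3 transcripts, 39.0% also occur in SERPINB4 and 33.3% in SERPINB11.

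SERPINB13, also called headpin or hurpin, is a keratinocyte inhibitor of cathepsins (ENSG00000197641, GRCh38 chromosome 18, 63586989 to 63604639, plus strand). It read 1.36, 0 and 1.64 in the vector libraries, 2.65, 10.6 and 13.7 with deltaNp63alpha and 101, 68.8 and 80.3 with deltaNp63beta. All deltaNp63beta libraries lay far above the rest, and every deltaNp63alpha library lay above every vector library, in 1 case by about 1 estimated count. The rise was 2.22 ± 0.61 with deltaNp63alpha (adjusted p = 0.0331), 5.50 ± 0.61 with deltaNp63beta (adjusted p = 3.06e-05) and 3.29 ± 0.61 between the isoforms (adjusted p = 0.00181). SERPINB13, too, entered the fit only through p63 libraries, so its p-values are no support for a rise. It shares 0 of its 31-base words with another gene.

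SERPINB2, plasminogen activator inhibitor 2, inhibits urokinase and is a component of the cornified cells of skin (ENSG00000197632, GRCh38 chromosome 18, 63871692 to 63903890, plus strand). Its values were 9.15, 13.2 and 16.5 in the vector libraries, 20.6, 32.0 and 32.5 with deltaNp63alpha and 367, 308 and 266 with deltaNp63beta. Again the groups stood in 3 steps that did not overlap. SERPINB2 was 22.9-fold higher with deltaNp63beta than with vector (log2 fold change 4.52 ± 0.28, adjusted p = 2.46e-07). With deltaNp63alpha it was 2.12-fold higher (1.08 ± 0.28, adjusted p = 0.0232), and deltaNp63beta exceeded deltaNp63alpha by 3.44 ± 0.28 (adjusted p = 4.25e-06). SERPINB10, a serpin of blood-forming cells that overlaps SERPINB2 on the same strand, was 0.921, 0 and 0 in the vector libraries, 2.97, 0 and 0 with deltaNp63alpha and 13.8, 8.20 and 6.86 with deltaNp63beta. It shares 19.2% of its 31-base words with SERPINB2, so the assignment of fragments between them is uncertain. The calls of SERPINB2, SERPINB3, SERPINB8 and SERPINB13 with deltaNp63alpha rested on few libraries. The call of SERPINB3 was lost when any deltaNp63alpha or deltaNp63beta library was left out, and without vector replicate 3 its change was 1.18 (adjusted p = 0.0589). That of SERPINB13 was lost when vector replicate 2, deltaNp63alpha replicate 2 or any deltaNp63beta library was left out, and that of SERPINB2 without vector replicate 1 or deltaNp63alpha replicate 2. Without deltaNp63alpha replicate 3 the adjusted p of SERPINB2, SERPINB3, SERPINB8 and SERPINB13 was 0.0811, 0.0914, 0.0503 and 0.131. The limma fit then called 0 of the cluster's genes with deltaNp63alpha, and 4 had an unadjusted p under 0.05.

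SERPINB5, maspin, is a non-inhibitory serpin of mammary and other epithelia, and was abundant in every library (ENSG00000206075, GRCh38 chromosome 18, 63476761 to 63505085, plus strand). It read 10368, 10571 and 10046 in the vector libraries, 10466, 9740.3 and 9898 with deltaNp63alpha and 13672, 13015 and 13289 with deltaNp63beta. The vector and deltaNp63alpha libraries overlapped, and all deltaNp63beta libraries lay above both. The rise with deltaNp63beta was 1.29-fold (0.37 ± 0.04, adjusted p = 2.29e-05), and the change with deltaNp63alpha was -0.04 ± 0.04 (adjusted p = 0.554, 95% interval -0.13 to 0.04). Between the isoforms SERPINB5 differed by 0.41 ± 0.04 (adjusted p = 1.71e-05).

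SERPINB8, an inhibitor of furin and trypsin-like proteases, was highest with deltaNp63alpha. It read 906, 1092 and 932 in the vector libraries, 1210.2, 1261 and 1279.6 with deltaNp63alpha and 979, 1072 and 1149 with deltaNp63beta, so all deltaNp63alpha libraries lay above all others. SERPINB8 rose 1.28-fold with deltaNp63alpha (0.36 ± 0.08, adjusted p = 0.0134). With deltaNp63beta the change was 0.13 ± 0.08 (adjusted p = 0.239), and the difference between the isoforms, -0.23 ± 0.08, did not pass (adjusted p = 0.0523). It passed without vector replicate 2 or deltaNp63beta replicate 3 (adjusted p = 0.0285 and 0.0326). SERPINB8 overlaps the gene HMSD on the same strand and shares 9.62% of its 31-base words with other genes. The call with deltaNp63alpha was also lost without vector replicate 1 or 3 (adjusted p = 0.0531 and 0.0537).

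SERPINB7, megsin, is a serpin of the upper epidermis. Its values of 112, 143 and 117 in the vector libraries, 136, 94.2 and 75.8 with deltaNp63alpha and 129, 165 and 169.8 with deltaNp63beta overlapped between vector and either isoform. SERPINB7 was higher with deltaNp63beta than with deltaNp63alpha (0.62 ± 0.22, adjusted p = 0.0454), and the groups overlapped in 1 library of each. That call was lost in 12 of 18 alternative settings, among them leaving out any library other than replicate 1 of either isoform. SERPINB11 and SERPINB12 stayed under 5 estimated counts in all 9 libraries.

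No gene tested beside the cluster was called. Within 500 kb on either side lay 7 other genes, of which BCL2, KDSR and VPS4B were tested, all upstream of SERPINB5. Their log2 fold changes were -0.15, 0.03 and 0.09 with deltaNp63alpha and 0.07, -0.05 and 0.05 with deltaNp63beta. By limma 0 of 3 were called in any comparison, and 0 had an unadjusted p under 0.05. Among all genes tested 14.5%, 41.3% and 32.9% were called with deltaNp63alpha, with deltaNp63beta and between the isoforms. Only 3 genes cannot show whether the changes were confined to the cluster. The widest 95% interval against vector was that of BCL2, -0.42 to 0.13 with deltaNp63alpha and -0.21 to 0.34 with deltaNp63beta. On the far side, beyond SERPINB8, 0 genes were tested.

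**Figure D3:**
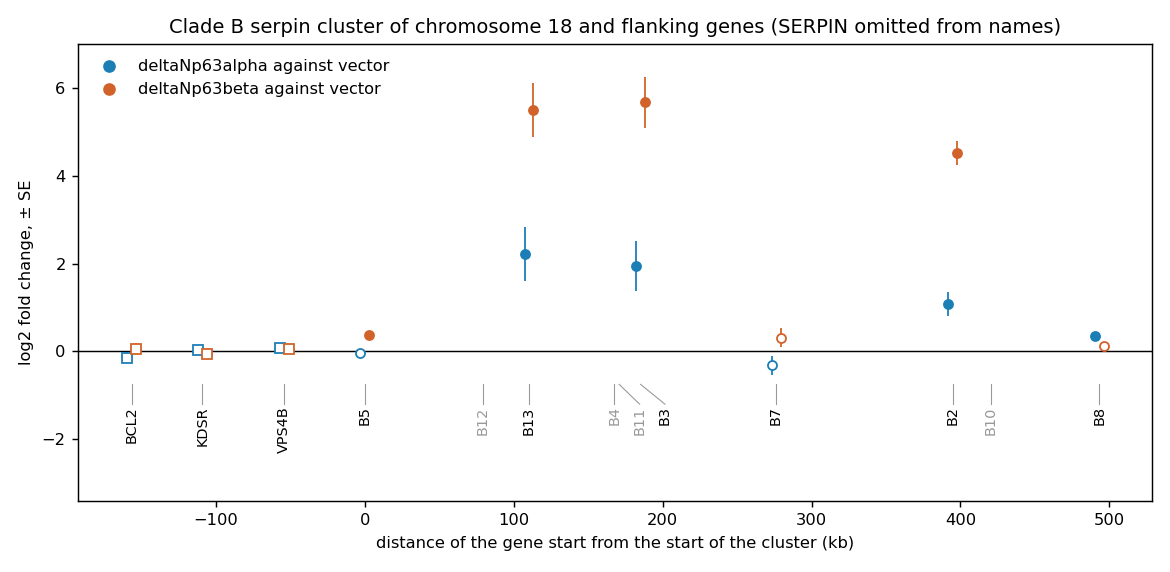
Log2 fold change ± SE against vector along the chromosome 18 cluster, by distance of each gene's start from the cluster's start in kb. Circles are serpins and squares flanking genes, filled where called, and names in grey are serpins below the filter. The high points are SERPINB13, SERPINB3 and SERPINB2, while the squares of BCL2, KDSR and VPS4B lie between -0.15 and 0.09.

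The remaining clade B genes form the chromosome 6 cluster (2832332 to 2972165), which holds SERPINB1, SERPINB6 and SERPINB9. SERPINB1, an inhibitor of neutrophil elastase and cathepsin G, read 706, 778 and 658 in the vector libraries, 627, 763 and 861 with deltaNp63alpha and 1144, 1132 and 972 with deltaNp63beta. All deltaNp63beta libraries lay above both other groups. SERPINB1 rose 1.51-fold with deltaNp63beta (0.60 ± 0.12, adjusted p = 0.0016) and differed between the isoforms by 0.54 ± 0.12 (adjusted p = 0.0043). With deltaNp63alpha its change was 0.06 ± 0.12 (adjusted p = 0.787).

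SERPINB6, a cytosolic inhibitor of trypsin-like proteases, showed the same order at a smaller size. It read 2495, 2487 and 2379 in the vector libraries, 2543, 2444 and 2433 with deltaNp63alpha and 2945, 2916 and 2819 with deltaNp63beta, again with only the deltaNp63beta libraries apart. The rise with deltaNp63beta was 1.18-fold (0.24 ± 0.04, adjusted p = 0.0012), and the change with deltaNp63alpha was 0.01 ± 0.04 (adjusted p = 0.907). SERPINB9, the granzyme B inhibitor of lymphocytes, was below the filter at 7.38, 18.9 and 7.27 in the vector libraries, 1.98, 5.68 and 6.12 with deltaNp63alpha and 6.88, 4.09 and 0.981 with deltaNp63beta.

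SERPINE2 of clade E encodes a secreted inhibitor of the plasminogen system, and it was lower than in vector by 5.33-fold with deltaNp63beta and by 1.77-fold with deltaNp63alpha. Urokinase (PLAU) and tissue plasminogen activator (PLAT) turn plasminogen into plasmin, PLAUR holds urokinase at the cell surface, and LRP1 takes up serpin-protease complexes.

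SERPINE2, protease nexin 1, inhibits thrombin and urokinase at the cell surface and in matrix (ENSG00000135919, GRCh38 chromosome 2, 223975112 to 224039319, minus strand). Its values were 1953, 2133 and 1897 in the vector libraries, 1188, 1106 and 1079 with deltaNp63alpha and 367, 325 and 435 with deltaNp63beta. The groups stood in 3 steps with no overlap, vector highest and deltaNp63beta lowest. The fall was 0.83 ± 0.10 with deltaNp63alpha (adjusted p = 0.000178) and 2.41 ± 0.10 with deltaNp63beta (adjusted p = 1.01e-08). Between the isoforms it differed by -1.59 ± 0.10 (adjusted p = 5.76e-07). SERPINE3 read 11.1, 20.1 and 3.55 in the vector libraries, 3.62, 3.46 and 1.16 with deltaNp63alpha and 1.12, 0 and 3.51 with deltaNp63beta and was not tested. It shares 28.3% of its 31-base words with INTS6.

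SERPINA5, the protein C inhibitor, which also binds urokinase and tissue plasminogen activator, fell with both isoforms. It read 214, 215 and 201 in the vector libraries, 113, 91.6 and 78.2 with deltaNp63alpha and 81.1, 82.7 and 96.3 with deltaNp63beta. Every vector library lay above every p63 library, and the p63 groups overlapped. The fall was 1.17 ± 0.16 with deltaNp63alpha (adjusted p = 0.000585) and 1.27 ± 0.16 with deltaNp63beta (adjusted p = 8.77e-05). The difference between the isoforms was -0.11 ± 0.16, with a 95% interval of -0.47 to 0.25 (adjusted p = 0.654).

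PLAU was 2217, 2329 and 2048 in the vector libraries, 1551, 1409 and 1446 with deltaNp63alpha and 2716, 2896 and 2713 with deltaNp63beta. These groups did not overlap: PLAU fell with deltaNp63alpha (-0.58 ± 0.06, adjusted p = 6.62e-05) and rose with deltaNp63beta (0.34 ± 0.06, adjusted p = 0.00101). PLAT and PLAUR rose with deltaNp63beta, by 0.48 ± 0.07 (adjusted p = 0.000353) and 0.48 ± 0.08 (adjusted p = 0.000776). PLG, the plasminogen gene, read 18.3, 41.8 and 58.4 in the vector libraries, 75.4, 39.7 and 22.9 with deltaNp63alpha and 24.6, 7.33 and 16.5 with deltaNp63beta and was not called, with a change of -1.24 ± 0.56 with deltaNp63beta (adjusted p = 0.0989, 95% interval -2.46 to -0.01). Within each group PLG ranked the libraries as SERPINC1 and some hepatocyte markers did, which are described below. The part of those markers in the result for PLG was not tested. The clearance receptor LRP1 fell by 0.42 ± 0.08 with deltaNp63alpha (adjusted p = 0.00535) and by 1.19 ± 0.08 with deltaNp63beta (adjusted p = 5.99e-07).

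**Figure D4:**
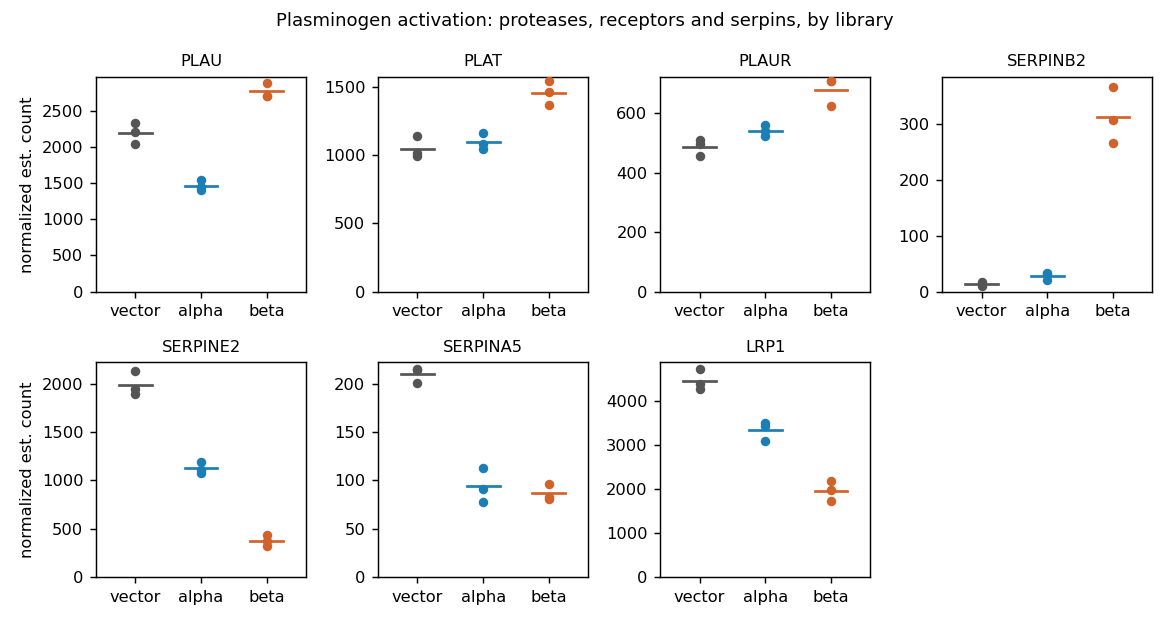
Normalized estimated counts of plasminogen activators, their receptor, 3 serpin inhibitors and the clearance receptor LRP1, one point per library and a bar at the mean of 3 libraries, each panel on its own linear axis from 0. PLAU is lowest with deltaNp63alpha and highest with deltaNp63beta, and SERPINE2 and SERPINB2 move in opposite directions with both isoforms.

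Over the whole list of 45 proteases and partners that serpins are known to inhibit or bind, 27 were tested. With deltaNp63alpha 6 rose and 3 fell (PLAU, C1R and C1S), and with deltaNp63beta 13 rose and 0 fell by limma, while 4 were lower at an unadjusted p under 0.05. The called shares were 33.3% and 48.1%, beside 14.5% and 41.3% of all genes tested. The list's median change was -0.04 and 0.34. KLK5, KLK7 and KLK14 reached a value of 10 only in deltaNp63beta libraries, so they had to be higher there. They are among the 27 tested and part of these shares and medians, and no count was made without them. The membrane proteases ST14 (matriptase) and PRSS8 (prostasin) had the smallest adjusted p with deltaNp63beta, at 2.34 ± 0.06 (adjusted p = 2.66e-10) and 1.62 ± 0.09 (adjusted p = 1.33e-07). ST14 and PRSS8 also rose with deltaNp63alpha, by 1.04 ± 0.06 (adjusted p = 7.39e-07) and 0.93 ± 0.09 (adjusted p = 4.38e-05). CTSL, a cathepsin that SERPINB3 and SERPINB13 inhibit, was 2441 ± 87.3 in vector, 2352 ± 77.3 with deltaNp63alpha and 2475 ± 85.5 with deltaNp63beta. CTSL was not called in any comparison, and neither was the cathepsin CTSK, at -0.33 ± 0.21 with deltaNp63alpha and -0.34 ± 0.21 with deltaNp63beta. The cathepsin CTSV rose with deltaNp63alpha (0.33 ± 0.09, adjusted p = 0.0361) and with deltaNp63beta (0.49 ± 0.09, adjusted p = 0.00145). CTSS rose with deltaNp63beta (0.99 ± 0.32, adjusted p = 0.0284) and was not called with deltaNp63alpha (-0.34 ± 0.32). Of 12 clearance receptors and matrix cofactors 10 were tested, and 4 rose and 1 (LRP1) fell with deltaNp63alpha, while 5 rose and 1 (LRP1) fell with deltaNp63beta, called shares of 50% and 60% beside the same 14.5% and 41.3%. SORL1 and the heparan sulfate proteoglycan SDC1 were among those that rose with both isoforms.

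Clade A is represented by 11 genes, 10 of them in the chromosome 14 cluster (94280455 to 94624055), and 4 were tested: SERPINA1, SERPINA3, SERPINA5 and SERPINA10. SERPINA3, alpha-1-antichymotrypsin, inhibits cathepsin G and chymase (ENSG00000196136, GRCh38 chromosome 14, 94612377 to 94624055, plus strand). It read 1036, 1083 and 973 in the vector libraries, 526, 481 and 559 with deltaNp63alpha and 886, 751 and 837 with deltaNp63beta. The groups did not overlap, with vector highest and deltaNp63alpha lowest. SERPINA3 fell by 0.98 ± 0.08 with deltaNp63alpha (adjusted p = 1.61e-05) and by 0.32 ± 0.08 with deltaNp63beta (adjusted p = 0.00985). The isoforms differed by 0.66 ± 0.08 (adjusted p = 0.000154). It shares 30.4% of its 31-base words with the overlapping transcript AL049839.2.

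SERPINA1, alpha-1-antitrypsin, the main inhibitor of neutrophil elastase, was 568 ± 38.8 in vector, 456 ± 23.6 with deltaNp63alpha and 487 ± 97.1 with deltaNp63beta (mean ± SD, n = 3). It was not called in any comparison, and its change with deltaNp63alpha was -0.31 ± 0.13 (adjusted p = 0.138, 95% interval -0.60 to -0.03). That change passed when only vector and deltaNp63alpha libraries were fitted (adjusted p = 0.0408). The change with deltaNp63beta, -0.24 ± 0.13, passed without deltaNp63beta replicate 3 (adjusted p = 0.023). SERPINA10, the protein Z-dependent inhibitor of factor Xa, was 18.5 ± 2.87 in vector, 19.1 ± 4.45 with deltaNp63alpha and 18.8 ± 2.21 with deltaNp63beta. Its change was 0.03 ± 0.33 with deltaNp63alpha and 0.03 ± 0.33 with deltaNp63beta.

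SERPINH1, HSP47, is a chaperone of the endoplasmic reticulum that binds folded procollagen. It read 5121, 5261 and 5133 in the vector libraries, 4813, 5105 and 4798 with deltaNp63alpha and 5545, 5817 and 5868 with deltaNp63beta, with all deltaNp63beta libraries above the rest and the other groups close together. SERPINH1 rose 1.11-fold with deltaNp63beta (0.15 ± 0.04, adjusted p = 0.0122) and differed between the isoforms by 0.23 ± 0.04 (adjusted p = 0.00146). With deltaNp63alpha its change was -0.08 ± 0.04 (adjusted p = 0.262). A list of 20 other genes, for procollagen folding and modification and for general chaperones such as HSPA5, HSP90B1, DNAJB1 and HSPH1, had 18 tested. Of these, 3 rose and 8 fell with deltaNp63alpha, and 5 rose and 11 fell with deltaNp63beta. The called shares were 61.1% and 88.9%, beside 14.5% (8.13% higher and 6.37% lower) and 41.3% (21.8% higher and 19.5% lower) of all genes tested. P4HB, a prolyl hydroxylase subunit, fell by 1.06 ± 0.04 with deltaNp63beta (adjusted p = 5.43e-09) and PLOD2, a collagen lysyl hydroxylase, by 1.11 ± 0.05 (adjusted p = 1.91e-08). The list's median change with deltaNp63beta was -0.37, and SERPINH1 moved the other way.

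SERPINC1, antithrombin, the inhibitor of thrombin and factor Xa (ENSG00000117601, GRCh38 chromosome 1, 173903804 to 173917378, minus strand), was the only tested gene of clades C, D, F and G with a call. It read 118, 202 and 227 in the vector libraries, 223, 131 and 119 with deltaNp63alpha and 113, 20.8 and 52.0 with deltaNp63beta. The deltaNp63beta libraries were spread widely and none exceeded the lowest vector library, but the highest lay within 10 estimated counts of it. SERPINC1 fell by 1.80 ± 0.51 with deltaNp63beta (adjusted p = 0.016) and by 1.58 ± 0.51 from deltaNp63alpha to deltaNp63beta (adjusted p = 0.0357). The call against vector was lost without vector replicate 2 or 3 (adjusted p = 0.0538 and 0.0578), and without deltaNp63beta replicate 2 the change was -1.19 (adjusted p = 0.0374). Without deltaNp63beta replicate 1 it was -2.38 (adjusted p = 0.00145). The call between the isoforms was lost in 9 of 18 settings, among them leaving out vector replicate 2, any deltaNp63alpha library or deltaNp63beta replicate 2 or 3, with a change of -0.97 without deltaNp63beta replicate 2.

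SERPIND1, heparin cofactor II, read 9.20, 16.6 and 20.8 in the vector libraries, 18.8, 19.9 and 13.3 with deltaNp63alpha and 19.7, 1.02 and 3.92 with deltaNp63beta. SERPING1, the C1 inhibitor of complement, read 20.6, 55.7 and 57.0 in the vector libraries, 34.9, 46.5 and 26.8 with deltaNp63alpha and 38.5, 17.01 and 8.15 with deltaNp63beta. Both were highest in deltaNp63beta replicate 1 among the deltaNp63beta libraries, as SERPINC1 was, and neither was called. Without deltaNp63beta replicate 1 both fell against vector, SERPIND1 by 2.32 (adjusted p = 0.01) and SERPING1 by 1.69 (adjusted p = 0.0219). SERPING1 was also called without vector replicate 1 (adjusted p = 0.036). Against deltaNp63alpha, too, both passed without deltaNp63beta replicate 1 (adjusted p = 0.00873 and 0.0454). Of 10 hepatocyte markers 6 were tested. With deltaNp63alpha 1 (TF) rose and 0 fell by limma, with 0 lower at an unadjusted p under 0.05. With deltaNp63beta 3 fell (TF, FGB and APOB), beside 19.5% of all genes tested that were lower. At an unadjusted p under 0.05, 5 of the 6 were lower with deltaNp63beta, beside 3534 of 15108 genes tested. The list's median change was then -1.47. FGB and APOB were highest in deltaNp63beta replicate 1 among the deltaNp63beta libraries, at 30.8, 5.18 and 11.9 and 48.6, 8.01 and 23.1, while TF read 518, 538 and 516 there and SERPINA1 was highest in replicate 3. APOA1 read 143, 311 and 371 in the vector libraries, 402, 224 and 158 with deltaNp63alpha and 194, 31.9 and 85.4 with deltaNp63beta. APOA1 and APOB ranked the libraries within each group as SERPINC1 did, while ALB, FGB, FGG and TF did not in every group. Of the other lists PLG and VTN ranked them as SERPINC1 did, and F2 did not. The list's summed level was 891 to 1297 in the vector libraries, 1115 to 1483 with deltaNp63alpha and 600.2 to 855 with deltaNp63beta. Among the defining markers ALB was 5.69, 11.4 and 16.2 in the vector libraries, 12.3, 8.47 and 4.28 with deltaNp63alpha and 9.25, 2.17 and 2.06 with deltaNp63beta, and 0 of the 10 were at 0 in all 9 libraries. The part of these markers in the result for SERPINC1 was not tested.

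SERPINF2, alpha-2-antiplasmin, the plasma inhibitor of plasmin, was near 0 in just a pair of libraries. It read 115, 2.30 and 107 in the vector libraries, 83.4, 5.82 and 78.6 with deltaNp63alpha and 124, 112 and 94.98 with deltaNp63beta. Vector replicate 2 and deltaNp63alpha replicate 2 stood apart from the others, all of which lay above 78. The change with deltaNp63beta was 1.68 ± 1.49 (adjusted p = 0.411), and without vector replicate 2 it was -0.01 (adjusted p = 0.992). SERPINF1, pigment epithelium-derived factor, an inhibitor of blood vessel growth, was 28.9 ± 5.46 in vector, 24.9 ± 9.21 with deltaNp63alpha and 20.5 ± 8.60 with deltaNp63beta and was not called. SERPINI1, neuroserpin, an inhibitor of tissue plasminogen activator known from neurons, read 58.2, 64.4 and 53.7 in the vector libraries, 82.7, 72.8 and 102 with deltaNp63alpha and 69.3, 96.7 and 97.5 with deltaNp63beta. Every p63 library lay above every vector library, and the p63 groups overlapped. SERPINI1 rose by 0.56 ± 0.21 with deltaNp63beta (adjusted p = 0.0483), and the change with deltaNp63alpha was 0.53 ± 0.21 and did not pass (adjusted p = 0.117). The call with deltaNp63beta was lost in 11 of 18 settings, among them leaving out any library other than deltaNp63alpha replicate 3 and deltaNp63beta replicate 1.

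The 14 serpins below the filter were mostly silent. SERPINA4, SERPINA7, SERPINA9 and SERPINA11 were listed at 0 in all 9 libraries, and SERPINA2, SERPINA6, SERPINA12 and SERPINI2 reached 1.84 at most. SERPINB4, SERPINB9, SERPINB10, SERPINB11, SERPINB12 and SERPINE3 were low. SERPINB4 and SERPINB10 would enter a fit only through the p63 libraries, so no test of them is given. When every gene above 0 in 3 libraries was fitted, SERPINE3 was lower with deltaNp63beta than with vector (limma adjusted p = 0.0281), in a fit that called 28.4% of all genes for that comparison (14.8% higher and 13.6% lower). The words that SERPINB4, SERPINB10 and SERPINE3 share with SERPINB3, SERPINB2 and INTS6 apply to these values too.

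Values were also divided by the length of all annotated exons of a gene, merged over its transcripts. The transcripts present may be shorter, by an amount that differs between genes, so the order of genes depends on this length. On this scale the levels of the tested serpins covered a wide range. SERPINB5 stood at 2622 ± 67.2 normalized estimated counts per kb of exon in the vector group (mean ± SD, n = 3), 2548 ± 96.8 with deltaNp63alpha and 3383 ± 83.8 with deltaNp63beta. SERPINH1 stood at 823 ± 12.4, 781 ± 27.6 and 914 ± 27.6 per kb, below SERPINB5 in every library. In the vector libraries SERPINB1 was at 231 ± 19.6 per kb and SERPINE2 at 224 ± 13.9, and their ranges overlapped. Undivided, their vector means were 714 and 1994. With deltaNp63beta SERPINB1 stood at 349.8 ± 30.99 per kb and SERPINE2 at 42.2 ± 6.25, with no overlap between these 2 genes. SERPINA3 was at 206 ± 10.99 per kb in the vector group, 104 ± 7.83 with deltaNp63alpha and 165 ± 13.6 with deltaNp63beta. SERPINB6 was at 186 ± 4.90 per kb in the vector group and SERPINB8 at 166 ± 17.1, and these 2 overlapped. With deltaNp63alpha SERPINB8, at 213 ± 6.13 per kb, lay above SERPINB6, at 187 ± 4.59, in every library. Undivided, SERPINB8 averaged 1250 there and SERPINB6 2473, the opposite order.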

How the data were processed

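Poly(A) RNA of 9 MCF10A libraries was analysed. The deposited signal values are normalized estimated counts per gene; per the submitters' processing notes the authors used kallisto 0.46.2, DESeq2 (version not given in the sources used here) and GRCh38, and the step that made the numbers is not stated. Column sums were 22.5 to 23.2 M (mega). Whole reads were not recovered: 59.9 to 63.5% of values up to 20 steps were whole within 0.1 step. The step gave the depth, and no counting interval was computed.

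Genes were matched by Ensembl ID to symbols and to GENCODE release 29 positions. Clusters are members under 1 Mb apart. Limma 3.58.1 (R 4.3.3, trend and robust moderation) was fitted to log2(value + 1) with all 9 libraries, a term for each group and no replicate block; the count test planned for raw counts was not run. The fit was tested on simulated data. Only genes well above the filter on values were changed there, all upward and in deltaNp63beta libraries. It does not show how changes of genes as low as SERPINB2, SERPINB3 and SERPINB13 are recovered. Promoters came from RefSeq on GRCh38.p14. Tables were read with pandas 2.3.3 and numpy 2.4.6 in Python 3.11.15, and figures were drawn with matplotlib 3.10.9. Alternatives were other pseudocounts, filters, scalings and fits, and leaving out each library.

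The serpin family has 1 member that is not reported here; it stayed in the fit over all genes. Members and lists were chosen with earlier results of these data known. Members called in any comparison are given in every library and the others by means or ranges. List genes are named among the 4 smallest adjusted p of a comparison, with some exceptions. PLAT, PLAUR, PLG, VTN, F2, CTSL, CTSV, CTSK, CTSS, C1R, C1S, TFPI2, KRT8 and ALB were chosen after their values were seen.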

Additional observations from a re-analysis of the deposited data

How the results depend on the processing

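Each of 60 serpin results was refitted under 18 alternatives. Of 1068 values 993 kept their side of the threshold, 62 calls were lost, 13 were gained and 0 called values changed direction. In 28 values of 12 results that were called in neither fit the sign changed. The counts of all genes called, and of serpins called with deltaNp63beta against vector or deltaNp63alpha, stayed within 1.5 times, but leaving out 1 library gave 640 to 1022 genes lower with deltaNp63alpha, beside 963, with 640 to 642 without vector replicate 2, vector replicate 3 or deltaNp63alpha replicate 3. Leaving out 1 library gave 3 to 6 serpins called for deltaNp63alpha against vector, beside 7, the fewest without deltaNp63alpha replicate 3, and 0 to 3 of the chromosome 18 cluster, beside 4. That cluster's count was 1 with only the groups compared and 2 with no mean-variance trend; the cause was not tested. With only the groups compared, and with quantile normalization, SERPINB8 was lower with deltaNp63beta than with deltaNp63alpha (adjusted p = 0.0395 and 0.0278).

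No pairing by replicate number was seen: residuals of the same number correlated at -0.12 to 0.08 and of different numbers at -0.14 to 0.12, and 2 of 9 libraries correlated best with their own number. With a replicate block the genes called were 1833 for deltaNp63alpha and 5939 for deltaNp63beta against vector and 4583 between the isoforms. The block gave 6, 11 and 11 serpins called, and SERPINB13 with deltaNp63alpha, SERPINI1 with deltaNp63beta and SERPINB7 between the isoforms were lost, while SERPINB8 between the isoforms was gained (adjusted p = 0.0445). Estimated counts below about 10 and 3 libraries a group limit what can be said of SERPINB4, SERPINB9, SERPINB10 and SERPINE3.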

Other observations

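Protease inhibitors that are not serpins were also measured. Of 24 such genes 16 were tested, and 7 rose and 3 fell with deltaNp63alpha, while 7 rose and 4 fell with deltaNp63beta. The called shares were 62.5% and 68.8%, beside 14.5% and 41.3% of all genes tested. PI3 (elafin) and SLPI, secreted inhibitors of neutrophil elastase, rose with deltaNp63beta by 3.86 ± 0.11 (limma adjusted p = 5.01e-10) and 2.85 ± 0.09 (adjusted p = 1.12e-09). SPINT2, an inhibitor of matriptase and prostasin, rose by 0.67 ± 0.04 with deltaNp63alpha (adjusted p = 5.16e-07) and 1.02 ± 0.04 with deltaNp63beta (adjusted p = 4.31e-09). TIMP1, an inhibitor of matrix metalloproteases, fell by 0.75 ± 0.05 (adjusted p = 2.41e-06) and 2.35 ± 0.05 (adjusted p = 6.86e-11).

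Genes beside the other serpin clusters were counted as well. With deltaNp63beta against vector 1 of 6 tested neighbours within 500 kb was called beside the chromosome 14 cluster, 7 of 9 beside the chromosome 6 cluster, 2 of 2 beside the chromosome 3 genes SERPINI1 and SERPINI2 and 7 of 16 beside the chromosome 17 genes SERPINF1 and SERPINF2, where 41.3% of all genes tested were called. The difference between clusters was not tested.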
